A study of Mus musculus with 16 samples.

Results

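Oxidative phosphorylation (OXPHOS) is the step at which mitochondria make most of the ATP of a neuron, and its nuclear-encoded subunits were followed here in the dorsal hippocampus of mice trained or not trained in active place avoidance. The genes were taken by symbol: Nduf followed by a, b, c, s or v and a number for complex I, Sdha to Sdhd for complex II, Uqcr for complex III, Cox4 to Cox8 for complex IV and Atp5 for complex V, without pseudogenes named -ps. This gave 85 of the 24972 gene rows, of which 38 belong to complex I, 4 to complex II, 8 to complex III, 18 to complex IV and 17 to complex V. Among the 38 is Ndufb4c, annotated as a processed pseudogene, which this name filter did not take out and which is counted in complex I below. The rule used no measured value.

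All animals were ArcCreERT2::eYFPflx mice on a C57BL/6 background, 3 to 4 months old, a line in which the Arc promoter drives a tamoxifen-inducible Cre that turns on a YFP reporter, and trained and untrained mice carried the same alleles. Trained mice learned to avoid an unmarked shock zone on a rotating arena, and untrained mice spent the same time on the arena with the shock off. A retention test followed 24 h after the last training trial, and the hippocampus was dissected 60 min later. Pieces of CA1, CA3 and DG of each animal were pooled by subregion, giving 16 libraries from 3 trained and 3 untrained mice: 3 trained and 3 untrained in CA1, and 3 trained and 2 untrained in each of CA3 and DG.

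Complex I takes electrons from NADH and complex II from succinate, and both pass them by ubiquinone to complex III, which hands them by cytochrome c to complex IV, where oxygen is reduced. Complexes I, III and IV pump protons, and the ATP synthase, complex V, uses the returning protons to make ATP. Neurons rely heavily on this route to restore ion gradients after firing. A set of core subunits of complexes I, III, IV and V is encoded in mitochondrial DNA; none of the 13 mtDNA-encoded transcripts was among the rows, so these were not analysed here, and all values below are of nuclear transcripts.

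The values are normalized estimated counts, which sum to between 7606550 and 7984140 in each library. They came from tissue pieces, so fewer cells of a type and less RNA per cell cannot be told apart. The subregion labels were checked against 6 markers each of CA1 pyramidal, CA3 pyramidal and DG granule cells. Prox1, a transcription factor of granule cells, lay between 3292 and 4183 in the libraries labelled DG, between 3052 and 3861 in those labelled CA1 and between 2690 and 4786 in those labelled CA3. The summed CA1 markers were highest in the untrained CA1 libraries (3457 to 5547) and lower in the trained CA1 libraries (1839 to 2169), where they overlapped those labelled DG (1460 to 2261). In the libraries labelled CA3 they lay between 971 and 1779, below all of CA1. The summed CA3 markers in the libraries labelled CA3 (3094 to 4121) overlapped those labelled DG (3309 to 3775). CA1 was thus apart from CA3 by the CA1 markers, but the DG libraries overlapped both in the summed markers of each of the 3 lists, and CA1, CA3 and DG stand below for the libraries so labelled. In CA1, 3 of the 6 CA1 markers were lower and 4 of the 6 CA3 markers higher after training, and 1 CA3 marker was lower. There, 2 of the 6 DG granule markers were also higher and 1 of 6 astrocyte markers lower. Over the subregions together, 3 CA3 markers were higher and 1 lower, 0 of the CA1 and DG granule markers passed the limma test (1 and 2 at an unadjusted p under 0.05), and 2 of 6 astrocyte markers were lower.

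Some other differences ran along the groups. The study's methods give 2 females and 1 male in the trained group and 1 female and 2 males in the untrained group, but Xist was between 7601 and 19592 in all 9 trained libraries and between 25.5 and 52.4 in 6 of the 7 untrained ones. CA3 untrained replicate 1 (Xist 10587) went against the other libraries of its animal. The Y-linked Ddx3y was at 201 in that library, at 448 to 553 in the other untrained ones, at 70.9 to 255 in CA1 trained replicate 1 and the 3 libraries of trained replicate 3, and at 1.66 to 12.9 in the other trained ones. Whether these libraries hold RNA of 1 mouse as labelled was not tested, and same-numbered libraries were taken as 1 mouse from the labels alone. Sex-linked transcripts thus nearly coincide with training and cannot be told apart from it. In 7 libraries between 7567 and 9758 genes were at 0, against 3124 to 5944 in the other 9. All 3 trained CA1 libraries and both untrained DG libraries were among the 7, so this difference cannot be told apart from training within CA1 or DG. Leptomeningeal markers summed to between 2071 and 2445 in the untrained CA1 and CA3 libraries and to between 1055 and 1793 in the trained ones, and 2 of 5 were called lower in CA1 and 1 of 5 in the combined comparison. Choroid plexus markers summed to between 809 and 1176 in the untrained CA1 and CA3 libraries and to 235.7 to 317 in the trained ones but for CA1 trained replicate 1 (2400). In CA3, 2 of 5 choroid plexus markers were called lower, and 1 of 6 interneuron markers was called higher in CA3 and in the combined comparison. The part of all of these in the results below was not tested beyond the alternatives given.

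Transcripts of complex V subunits took the largest share of each library, 0.221% to 0.267%, followed by complex I with 0.155% to 0.204%, complex IV with 0.106% to 0.127%, complex III with 0.0492% to 0.0623% and complex II with 0.0413% to 0.0509%. All 85 members together made up 0.582% to 0.711%. The share in DG was 0.656% to 0.711% in the trained libraries and 0.582% to 0.62% in the untrained ones. In CA1 the corresponding ranges were 0.598% to 0.61% and 0.585% to 0.595%, and in CA3 they were 0.605% to 0.677% and 0.585% to 0.621%, the only subregion in which the 2 ranges overlapped.

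To compare genes, values were divided by transcript length in kilobases, which was known for 84 of the 85 members. Of the members that reached a value of 10 in at least 2 libraries, the median level was 880 per kilobase in complex IV, 761 in complex V, 623 in complex III, 363 in complex I and 337 in complex II. The member with the highest level was Atp5b, the catalytic beta subunit of ATP synthase, with 2844 per kilobase. In complex IV it was Cox4i1, a subunit present in every tissue, with 2369. In complex I it was Ndufa4, now regarded as a subunit of complex IV in spite of its name, with 1500, in complex III the hinge protein Uqcrh with 929, and in complex II the flavoprotein Sdha with 812.

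**Figure D1:**
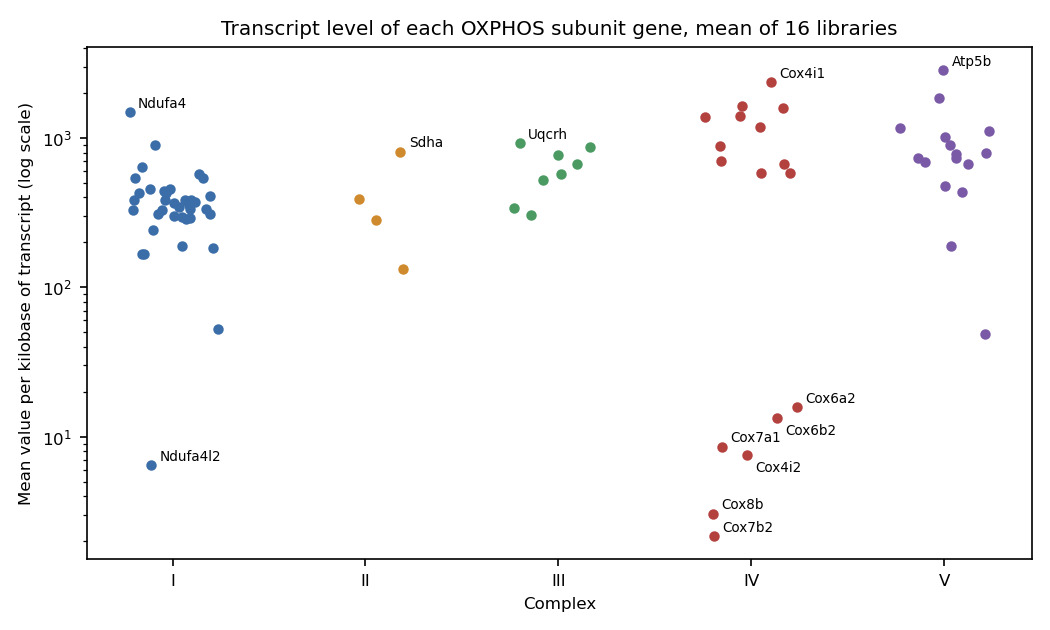
Mean value of each OXPHOS subunit gene over the 16 libraries, divided by transcript length in kilobases (vertical axis, log scale), by respiratory complex. Each point is a gene, the highest of each complex and those under 20 are named, and Cox8c, at 0 in all libraries, and Atp5o, without a length, are not drawn. A group of tissue-restricted complex IV isoforms lies between 2.17 and 15.8 per kilobase, far below Cox4i1 at 2369.

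Where a subunit is encoded by more than 1 gene, the form known as ubiquitous had the higher level per kilobase. Cox4i1 was at 2369 and its lung form Cox4i2 at 7.56, and Cox4i2 reached a deposited value of 10 in a single library, DG untrained replicate 1 (16.8). Cox6a1, the non-muscle form of a regulatory subunit, was at 1403 per kilobase and the muscle form Cox6a2 at 15.8. Cox6b1 was at 1186 and the testis form Cox6b2 at 13.2. Cox7a2 was at 880, the supercomplex factor Cox7a2l at 697 and the muscle form Cox7a1 at 8.58. Cox8a was at 1589.6, against 3.05 for the muscle form Cox8b, and the testis form Cox8c was listed at 0 in all 16 libraries. The testis gene Cox7b2 was at 2.17. Ndufa4 was at 1499.8 and its hypoxia-induced relative Ndufa4l2 at 6.46, with a deposited value of at least 10 in 2 libraries, CA1 trained replicates 1 and 2. The 3 genes of the identical mature c subunit of the ATP synthase ring were all present, Atp5g3 at 1009 per kilobase, Atp5g2 at 734 and Atp5g1 at 189.

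The first comparison asked which subunit transcripts differed between trained and untrained mice over the 3 subregions together, with limma on log2(value + 2) and the subregion as a term. A gene was called at a Benjamini-Hochberg adjusted p under 0.05 over all 14670 genes tested, and 80 members were tested. Of these, 25 were higher after training and 0 lower, against 6.28% of all genes tested called higher and 4.06% called lower. The median log2 difference was 0.13 over the members and -0.01 over all genes tested, and 68 of the 80 differences were above 0 (44 of 79 with the length and GC trend described below removed, and 78 of 80 with a sex-linked covariate). In 10 members every trained library lay above every untrained library in each of the 3 subregions, which held for 1.62% of all genes tested, and 1.3% lay apart in the other direction.

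**Figure D2:**
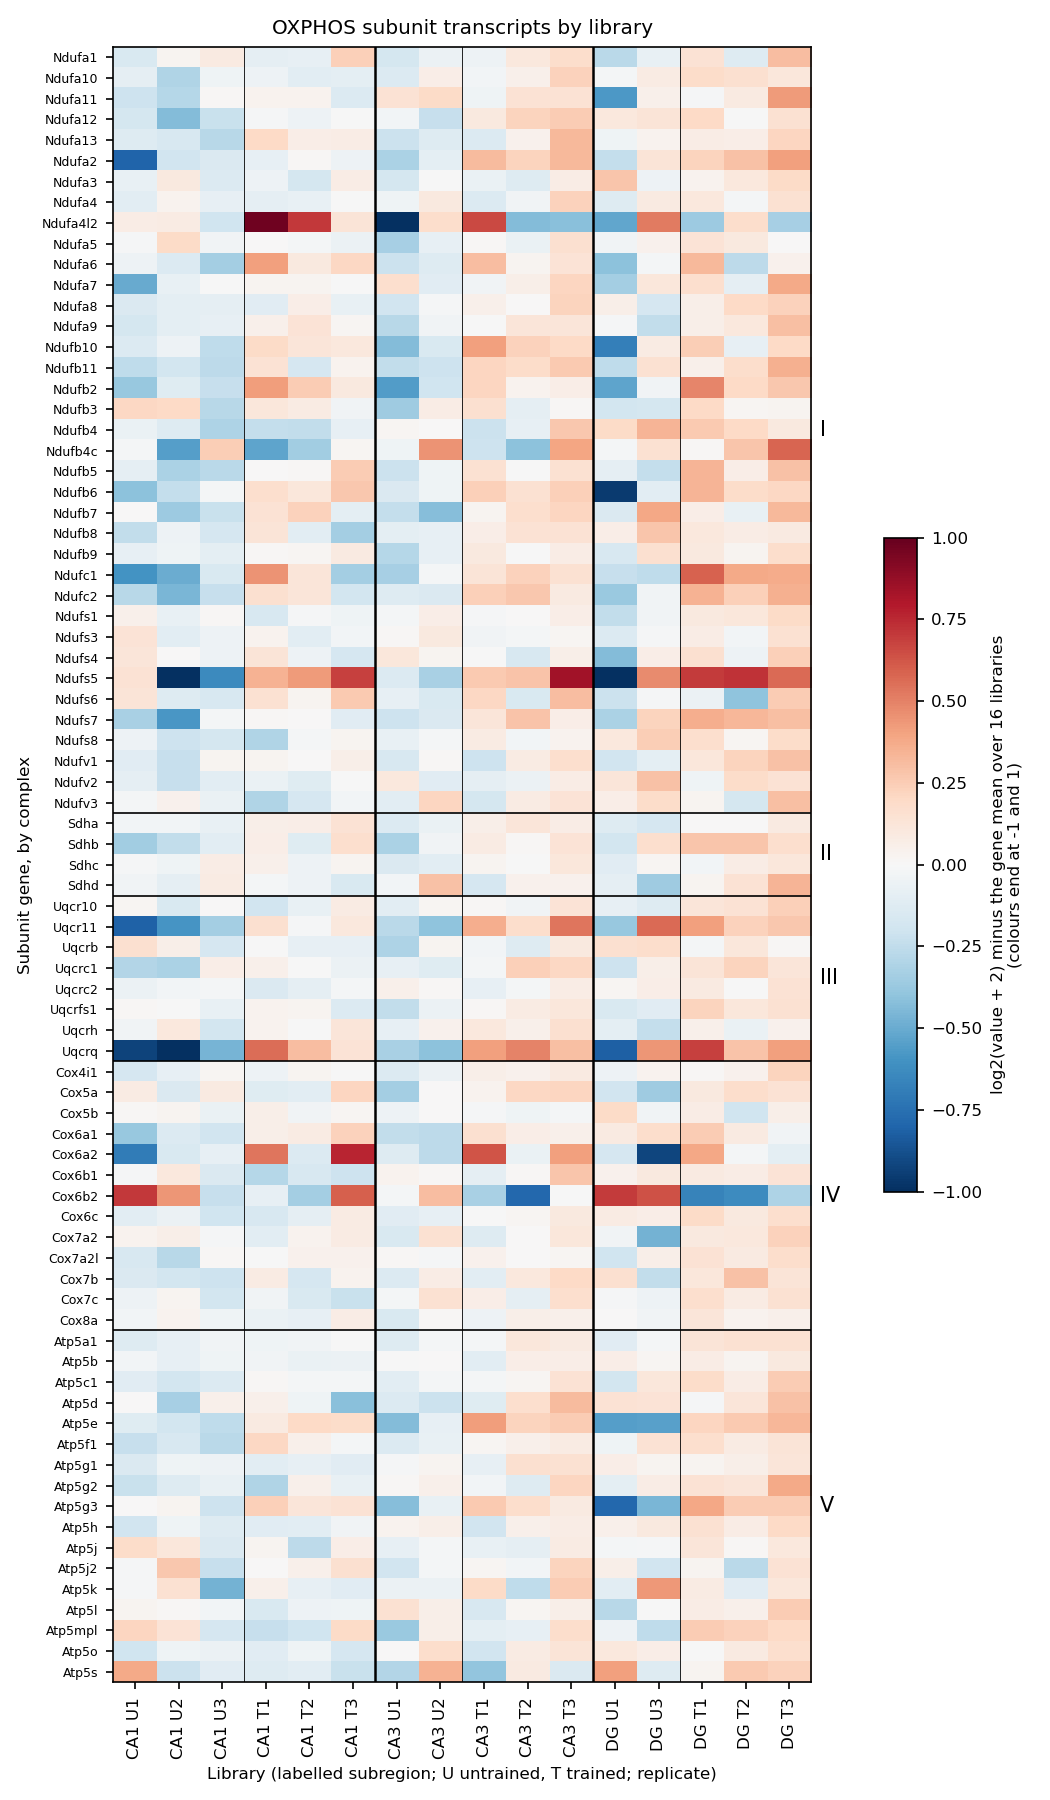
Heat map of 79 of the 80 OXPHOS subunit genes tested (rows, by complex) in the 16 libraries (columns). Colour gives log2(value + 2) minus the mean of the gene over all libraries, from blue (lower) to red (higher). The trained DG columns are mostly above the gene means, and Ndufs5, Uqcrq and Uqcr11 vary strongly among the well-expressed genes.

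All calls were higher, 14 of 38 in complex I, 2 of 4 in complex II, 3 of 8 in complex III, 1 of 13 in complex IV and 5 of 17 in complex V. Beside them, 6.28% of all genes tested were called higher, and the share in complex IV is near this. The median log2 differences were 0.16, 0.12, 0.14, 0.11 and 0.07 from complex I to complex V. Within complex I, 2 of the 7 nuclear core subunits were called and 12 of the 31 others, with medians of 0.02 and 0.18. The difference between complexes was not tested.

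Over the subregions together, the strongest calls by adjusted p were Atp5e, Ndufc2 and Ndufb2. Atp5e encodes the epsilon subunit of the ATP synthase central stalk. In the untrained libraries its values were 298, 286 and 272 in CA1, 239.6 and 307 in CA3, and 222 and 222 in DG. In the trained libraries they were 345, 374 and 369 in CA1, 435, 379.95 and 388 in CA3, and 377, 389.8 and 409 in DG. All trained libraries were above all untrained ones, with no overlap across subregions either. The log2 difference was 0.55 ± 0.07 (SE), with an adjusted p of 6.34e-05.

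Ndufc2, an accessory subunit of the membrane arm of complex I, had values of 254, 223 and 262 in untrained CA1, 281 and 279 in untrained CA3, and 237 and 299 in untrained DG. The trained values were 344, 335 and 271 in CA1, 363, 371 and 328 in CA3, and 391, 364 and 395 in DG. The trained and untrained values were apart within each subregion, and CA1 trained replicate 3 was the lowest trained library. The log2 difference was 0.40 ± 0.07, with an adjusted p of 0.000609. Ndufb2, another membrane arm subunit, was 101 on average in untrained and 145.5 in trained libraries, a log2 difference of 0.53 ± 0.09 with an adjusted p of 0.000795, and its values were apart within each subregion. An annotated Ndufb2 transcript shares 146 bases with Braf, so its count may be uncertain.

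The nuclear core of complex I, which carries the flavin and iron-sulfur clusters and the quinone site, held 2 called members. Ndufv1, the flavoprotein that binds NADH, rose from a mean of 678 to 777 (log2 difference 0.19 ± 0.06, adjusted p = 0.0382), and the iron-sulfur subunit Ndufs7, next to the quinone site, from 253 to 321 (0.33 ± 0.08, adjusted p = 0.00791). Ndufv2, Ndufs1, Ndufs3 and Ndufs8 did not pass the test. Their log2 differences lay between -0.01 and 0.06. For Ndufs1, with means of 1032 trained and 988 untrained, the 95% interval was -0.05 to 0.16.

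In complex II, the flavoprotein Sdha had values of 2304, 2305 and 2237 in untrained CA1, 2139 and 2243 in untrained CA3, and 2146 and 2096 in untrained DG. The trained values were 2445, 2466 and 2593 in CA1, 2444, 2558 and 2480 in CA3, and 2359, 2363 and 2499 in DG. The 9 trained values all exceeded the 7 untrained values, by a small amount (log2 difference 0.16 ± 0.03, adjusted p = 0.00304). The iron-sulfur subunit Sdhb rose by 0.26 ± 0.06 (adjusted p = 0.00821) and overlapped between groups in CA1 and DG. The membrane anchors Sdhc and Sdhd had differences of 0.08 (95% interval -0.02 to 0.18) and 0.05 (-0.11 to 0.22) and did not pass.

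In complex III the called members were Uqcrq, Uqcr11 and Uqcrc1, the last named after its values were seen. Uqcrq and Uqcr11 encode small subunits of the membrane part, and their mean values went from 228 to 408 and from 278 to 397 (log2 differences of 0.88 ± 0.17 and 0.53 ± 0.12, adjusted p = 0.00549 and 0.012). Neither was apart in DG, where untrained replicate 1 was low (174 for Uqcrq and 254 for Uqcr11) and untrained replicate 3 high (419 and 492). Uqcrc1, a core protein, rose by 0.21 ± 0.06 (adjusted p = 0.016). Uqcrh had a difference of 0.13 ± 0.05 that did not pass (adjusted p = 0.104).

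In complex IV, Cox6a1 was the called member (means of 730 untrained and 857 trained, log2 difference 0.23 ± 0.06, adjusted p = 0.0148), with the trained values above the untrained in CA1 and CA3 and overlapping in DG. Cox4i1 had a difference of 0.11 ± 0.04 (adjusted p = 0.097) and Cox8a of 0.05 ± 0.04 (adjusted p = 0.497). Of the other complex IV isoforms tested, Cox6b1, Cox7a2 and Cox7a2l had differences of -0.05, 0.11 and 0.13, and the low Cox6a2 and Cox6b2 of 0.62 (adjusted p = 0.0981) and -0.62 (adjusted p = 0.174). Ndufa4 and Ndufa4l2 had differences of 0.03 and 0.33 (95% intervals -0.08 to 0.13 and -0.36 to 1.01). In complex V, the called members were Atp5e, Atp5g3 and, named after their values were seen, the peripheral stalk subunit Atp5f1, the gamma subunit Atp5c1 and the alpha subunit Atp5a1. The beta subunit Atp5b, the partner of Atp5a1 in the F1 head, had means of 5411 untrained and 5480 trained, a difference of 0.01 with a 95% interval of -0.06 to 0.08. Among the c subunit genes, Atp5g3 rose by 0.50 ± 0.09 (adjusted p = 0.00304), and Atp5g1 and Atp5g2 had differences of 0.02 (-0.08 to 0.11) and 0.08 (-0.05 to 0.21).

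The count depended on single animals and on what was put in the model. Without untrained replicate 1 it was 8 and without trained replicate 2 it was 16, and without the CA3 libraries it was 9. With a sex-linked score as a covariate it was 0, although the median difference of the members was 0.25. The members' transcripts are short, with a median of 782 bases against 3038 for all genes tested, and across all genes the log2 difference correlated with log2 length at r = -0.23, and across the 79 members with a length at r = -0.10 (genes are not independent replicates). With each library's trend on length and GC content removed, 14 members were higher and 3 lower, and the median was 0.05, against 0.02 for all genes.

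**Figure D3:**
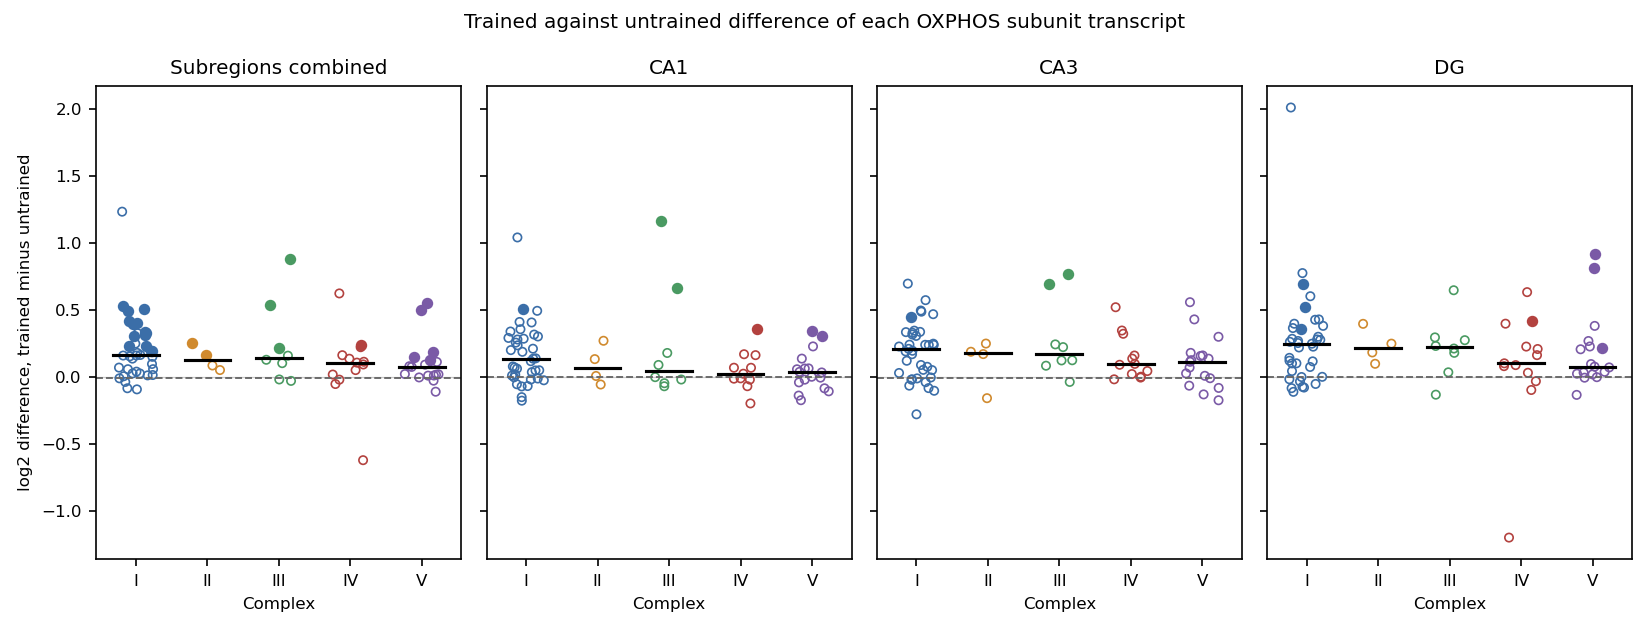
Log2 difference between trained and untrained libraries of each OXPHOS subunit gene (points, fitted on log2(value + 2)), by complex, for the subregions combined and for CA1, CA3 and DG alone. Filled points passed an adjusted p under 0.05, black bars are medians of the complex and the dashed line is the median of all genes tested. Filled points lie above 0 in each panel, 25 for the subregions combined, 6 in CA1, 3 in CA3 and 7 in DG.

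In CA1 alone, 6 of 77 members tested rose with training and 0 fell, against 3.53% and 1.7% of all genes tested. The median difference was 0.06, but -0.00703 with the length and GC trend removed and 0.199 with the sex-linked covariate. These alternative medians are not set beside those of all genes. Trained values lay above untrained values in 21 members (12.9% of all genes tested) and below in 2 (11.1%). The called members were Uqcrq, Uqcr11, Cox6a1 and, beyond the naming rule, Atp5f1, Atp5e and Ndufb2. Uqcrq stood at 161, 143 and 222 in the untrained and at 454, 380.3 and 338 in the trained CA1 libraries, a log2 difference of 1.16 ± 0.16 (adjusted p = 0.000939). Uqcr11 stood at 188, 219.8 and 263 untrained and 371, 329.5 and 357 trained (0.66 ± 0.11, adjusted p = 0.00158). Cox6a1 stood at 609.6, 723 and 698 untrained and 828, 840.4 and 933 trained (0.36 ± 0.08, adjusted p = 0.00912).

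None of these 3 genes overlapped between the CA1 groups. The count was 3 without trained replicate 1 or without untrained replicate 1 and 0 with the sex-linked covariate. With the length and GC trend removed, 4 members were higher and 7 lower in CA1, and Cox6a1 had a difference of 0.02 (adjusted p = 0.93), so the split of calls in CA1 turned with this choice.

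In CA3 alone, 3 of 78 members rose and 0 fell, against 0.737% and 0.116% of all genes tested. The median was 0.15, but 0.0954 without untrained replicate 1 and 0.0793 with the length and GC trend removed. It was 0.237 with a term for the libraries with many genes at 0 and 0.265 with the sex-linked covariate. Medians of all genes under these alternatives are not given here. Trained values lay above untrained ones in 36 members (17.2% of all genes tested) and below in 1 (16.7%). Uqcrq was 245 and 231 untrained and 409.6, 435 and 378 trained (log2 difference 0.77 ± 0.10, adjusted p = 0.0073). Uqcr11 was 275 and 251 untrained and 427, 375 and 483 trained (0.69 ± 0.11, adjusted p = 0.0259). Ndufb11, an X-linked accessory subunit of the complex I membrane arm, was 294 and 301 untrained and 405, 395 and 418 trained (0.45 ± 0.09, adjusted p = 0.0414). In each the lowest trained library was above both untrained ones. With the term for many genes at 0, Uqcrq (adjusted p = 0.0724) and Ndufb11 (adjusted p = 0.125) did not pass. The CA3 count was 0 without trained replicate 2 or either untrained replicate (which leaves 1 untrained library, assumed to vary like the trained ones), 11 without trained replicate 1, 0 with the sex-linked covariate and 1 with the length and GC trend removed.

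In DG alone, 7 of 79 members rose and 0 fell, against 1.74% and 1.66% of all genes tested. The median was 0.21, but 0.0843 without untrained replicate 1, -0.000335 with the length and GC trend removed and 0.296 with the sex-linked covariate. The median of all genes with this trend removed is not set beside it, so a value near 0 does not show that members and all genes were alike. Trained values lay above untrained ones in 35 members (17.4% of all genes tested) and below in 2 (18.2%). Atp5g3 was 412 and 515 in the untrained and 928, 847 and 847 in the trained DG libraries (log2 difference 0.92 ± 0.10, adjusted p = 0.000208). Atp5e was 222 in both untrained libraries and 377, 389.8 and 409 in the trained ones (0.81 ± 0.10, adjusted p = 0.000612). Ndufc1, a small complex I membrane arm subunit, was 119 and 117 untrained and 211, 182 and 182 trained (0.69 ± 0.14, adjusted p = 0.0163). The other called members were Ndufc2, Ndufv1, Cox5a and Atp5a1, with differences between 0.21 and 0.52.

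The DG groups of these genes did not overlap. The DG count was 2 without any single trained replicate, 23 without untrained replicate 3, where untrained replicate 1 alone stands for its group and is assumed to vary like the trained libraries, and 0 with the sex-linked covariate. With the length and GC trend removed, 4 members were higher and 2 lower. In DG, 2 of 6 granule cell markers, Prox1 and Stxbp6, and 1 of 5 endothelial markers, Flt1, were called lower in the trained libraries. Their means were 3341 against 4151, 1547 against 2094 and 179.6 against 348. All 6 granule and all 5 endothelial differences were below 0. The part of cell make-up in the DG result was not tested.

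**Figure D4:**
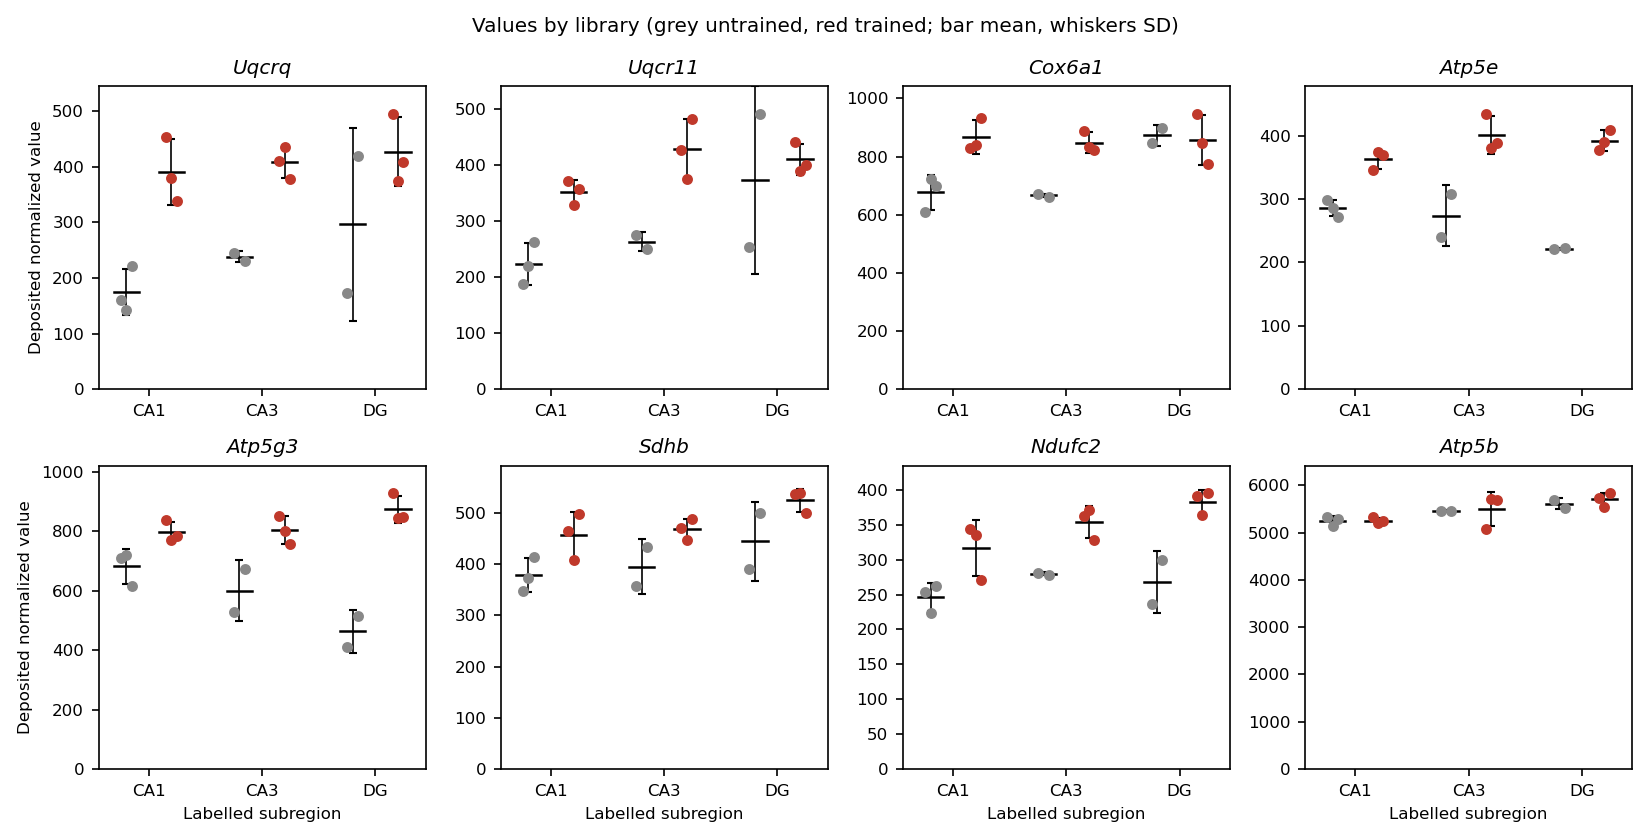
Values by library of 8 OXPHOS subunit genes in the libraries labelled CA1, CA3 and DG (vertical axis, deposited normalized value from 0). Grey points are untrained, red points trained, bars are means and whiskers SD (n = 3, except n = 2 for untrained CA3 and DG). Atp5e is higher in every trained library than in any untrained one, Uqcrq and Uqcr11 differ in CA1 and CA3 while their 2 untrained DG values are far apart, and the Atp5b groups overlap.

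Over the 3 single-subregion comparisons, 13 of the 77 members tested in each (16.9%) were called higher at least once, against 5.41% of all genes tested in each. Of these, 3 members (3.9%) were called in 2 subregions (Uqcrq and Uqcr11 in CA1 and CA3, Atp5e in CA1 and DG), against 0.552% of all genes, and 0 in all 3. Differences were above 0 in all 3 subregions in 39 members (50.6%, against 20.1% of all genes), below 0 in all 3 in 3 members (3.9%, against 19.7%) and mixed in 35. These shares hold for the values as deposited. With the length and GC trend removed, 38 of 76 members were above 0 in CA1, 53 of 77 in CA3 and 39 of 78 in DG. The share of all genes above 0 with the trend removed is not given beside these counts. The same mice gave the libraries of the 3 subregions. Whether a difference itself differed between subregions was tested by an interaction in a fit of the 6 groups. Atp5g3 was the member that passed for CA1 against DG, 1 of 80 tested, beside 1.2% of all genes tested called higher and 1.55% called lower. The share of members called was thus not above that of all genes. The training difference of Atp5g3 was smaller in CA1 by 0.69 ± 0.14 (95% interval -0.98 to -0.41, adjusted p = 0.0136). Its CA1 values were 710.2, 722 and 616 untrained and 837, 771 and 785 trained. The call was lost without trained replicate 2 (adjusted p = 0.079) or without untrained replicate 1 (adjusted p = 0.085), and the count of members called was 5 without untrained replicate 3 and 2 without trained replicate 1 or untrained replicate 1. The trained CA1 and untrained DG libraries were among those with many genes at 0.

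For CA1 against CA3 no member and 0.0273% of all genes tested passed the limma interaction, with 2 members at an unadjusted p under 0.05. For CA3 against DG no member and 0.13% of all genes passed, with 10 members at an unadjusted p under 0.05. The calls of Uqcrq and Uqcr11 in CA1 and CA3 but not DG were therefore not shown to differ between subregions.

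Ndufs5 had the highest combined difference of all members, 1.23 ± 0.43, without passing the test (adjusted p = 0.0949). It is described because of its reads, and was named after its values were seen. Its values ran from 21.6 in DG untrained replicate 1 to 379.97 in CA3 trained replicate 3. A gene named BC002163 is 99.4% identical to Ndufs5 over 319 aligned bases and had high values where Ndufs5 was low, 296 in DG untrained replicate 1 and 14.6 in CA3 trained replicate 3. In DG trained replicate 2 the 2 values were 348 and 5.23. Their sum lay between 317 and 441 in all 16 libraries. Summed, the combined difference was 0.08 ± 0.07 (adjusted p = 0.495), and in DG it went from 2.01 ± 1.32 to 0.14 ± 0.12. Whether reads were divided between these 2 genes in a way that varied between libraries was not tested, and Ndufs5 alone is uncertain.

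**Figure D5:**
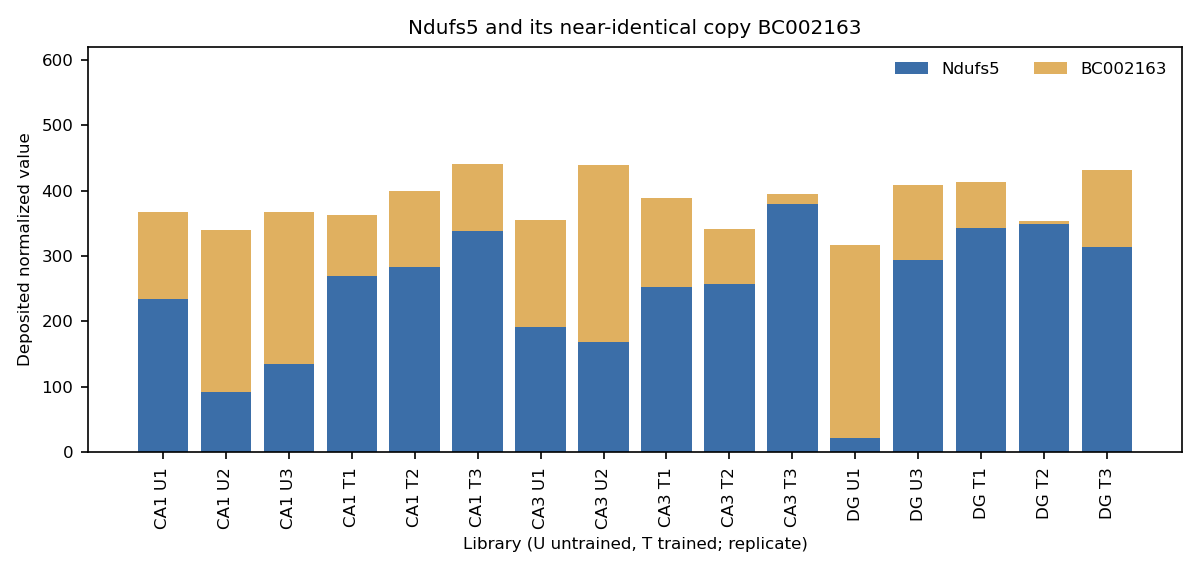
Values of Ndufs5 (blue) and of BC002163, 99.4% identical to it over 319 bases (yellow), stacked for each of the 16 libraries (vertical axis, deposited normalized value). The blue part runs from 21.6 to 379.97 while the height of the whole bar stays between 317 and 441.

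Other members were checked for sequence shared with another gene at 95% identity or more over at least 100 bases. Of the 85 members, 37 had such a match in the annotation and 19 had one among the rows of the data. Most of the 19 are neighbours or read-through transcripts, such as Atp5f1 with Wdr77 (192 bases) and Ndufb11 with Rbm10 (117 bases), and Ndufc1 shares a repeat-like stretch with 6 genes. Ndufb4 and the processed pseudogene Ndufb4c are identical over 390 bases. Uqcrq, Cox6a1, Atp5e, Atp5g3 and Ndufc2 had no such match. Uqcr11 had 2 in the annotation and 0 among the rows of the data.

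The promoters of 4 called members are shown, chosen by hand among those with the smallest adjusted p in single subregions, 2 of them called together in DG. Uqcrq, with the smallest adjusted p of the members in CA1 and in CA3, is not shown, and neither are Ndufb11 and Ndufc1. RefSeq windows from 250 bases before to 50 bases after the transcript start (GRCm38.p6) were found for 68 of the 85 members, and the 4 shown lie on the minus strand and are printed 5′ to 3′ of the gene. Capitals mark the letters of 4 motifs searched on both strands: CGCATGCG, the centre of the site of nuclear respiratory factor 1 (NRF1), CCGGAAGT, an ETS site of the kind bound by GA-binding protein (GABP), AAGATGGC, a YY1 site, and AAGGTCA, the half-site of the estrogen-related receptors (ERR). The windows lie at chr10:80406772-80407071 for Uqcr11, chr5:115348909-115349208 for Cox6a1, chr2:174464052-174464351 for Atp5e and chr2:73911277-73911576 for Atp5g3.
Uqcr11: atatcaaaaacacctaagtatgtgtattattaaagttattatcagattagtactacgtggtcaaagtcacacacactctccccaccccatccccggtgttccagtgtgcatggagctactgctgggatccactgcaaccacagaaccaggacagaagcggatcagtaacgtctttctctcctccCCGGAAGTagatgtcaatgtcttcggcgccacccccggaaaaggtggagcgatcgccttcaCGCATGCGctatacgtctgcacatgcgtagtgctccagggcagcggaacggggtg
Cox6a1: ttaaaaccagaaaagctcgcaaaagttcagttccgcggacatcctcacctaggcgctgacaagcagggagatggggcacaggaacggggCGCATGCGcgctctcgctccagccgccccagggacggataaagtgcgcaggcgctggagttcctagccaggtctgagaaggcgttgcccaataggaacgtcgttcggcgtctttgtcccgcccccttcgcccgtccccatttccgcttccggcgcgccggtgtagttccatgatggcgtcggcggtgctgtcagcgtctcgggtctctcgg
Atp5e: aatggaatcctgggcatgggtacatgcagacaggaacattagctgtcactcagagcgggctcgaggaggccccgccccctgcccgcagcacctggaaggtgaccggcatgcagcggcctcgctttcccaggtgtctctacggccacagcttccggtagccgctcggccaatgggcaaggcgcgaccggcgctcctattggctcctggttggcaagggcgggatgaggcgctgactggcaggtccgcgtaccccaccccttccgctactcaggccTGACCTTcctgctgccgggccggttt
Atp5g3: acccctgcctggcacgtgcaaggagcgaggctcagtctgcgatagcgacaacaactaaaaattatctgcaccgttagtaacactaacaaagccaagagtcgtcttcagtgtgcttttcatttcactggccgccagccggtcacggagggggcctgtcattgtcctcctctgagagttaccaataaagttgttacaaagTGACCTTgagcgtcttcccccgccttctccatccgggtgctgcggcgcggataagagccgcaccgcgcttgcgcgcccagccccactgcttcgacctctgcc
Uqcr11 holds a GABP-type match that begins 66 bases before the start and an NRF1 match that begins 5 bases before the start and runs across it. Cox6a1 holds an NRF1 match that begins 161 bases before its start. The ERR half-site is on the opposite strand in both ATP synthase genes, at base 25 of the Atp5e transcript and 52 bases before the start of Atp5g3.

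The NRF1 letters were found in 9 of the 68 members (13.2%) and in 2.07% of the 27025 genes with a window. The YY1 letters were found in 10 members (14.7%, against 3.19%), the ERR letters in 8 (11.8%, against 5.38%) and the GABP letters in 5 (7.35%, against 4.31%). Each of the 4 promoters shown holds a match, so they do not stand for the called members as a whole. Uqcrq and Ndufb11 were not among the members with any of these letters, and whether they had a window is not given here. A match describes these letters and is not a binding site.

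The second question was how the levels of these subunits compare between subregions, with training as a term in 1 fit of all 16 libraries. Between CA1 and DG, 4 of 80 members were lower in CA1 and 0 higher, against 0.832% and 1.12% of all genes tested, with a median of -0.10. In 8 members every CA1 library was below every DG library, which held for 1.33% of all genes tested, and 1.14% were apart the other way. Ndufb4, an accessory complex I subunit, ranged from 257 to 303 with a median of 280.4 in the 6 CA1 libraries and from 340.2 to 402 with a median of 365 in the 5 DG libraries, with CA3 between (median 318, range 274 to 383). Its log2 difference between CA1 and DG was -0.40 ± 0.08 (adjusted p = 0.0133), and with Ndufb4c added it was -0.40 as well.

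Cox6c, a small complex IV subunit, was 867 to 1055 in CA1 and 1043 to 1138 in DG (log2 difference -0.20 ± 0.05, adjusted p = 0.0371). The core complex I subunit Ndufv2 was 529 to 618 in CA1 and 604 to 763 in DG (-0.24 ± 0.06, adjusted p = 0.0406), and with the animal as a replicate block its adjusted p was 0.061. The peripheral stalk subunit Atp5h, named after its values were seen, was 629 to 702 in CA1 and 743 to 823 in DG (-0.22 ± 0.06, adjusted p = 0.0412). Cox6c and Ndufv2 overlapped by the highest CA1 and the lowest DG libraries, and Ndufb4 and Atp5h did not overlap. The count was 0 without trained replicate 1 or 2, 1 without untrained replicate 2 or 3, and 2 without trained replicate 3. With the length and GC trend removed it was 19, all lower in CA1.

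Between CA1 and CA3, 0 members passed the limma test, with 10 at an unadjusted p under 0.05 and 0.211% of all genes tested called. Between CA3 and DG, 0 members and 0% of all genes tested passed, with 6 members and 715 genes at an unadjusted p under 0.05. For the highest member per kilobase of each complex, the subregion means are given from lowest to highest. They were CA1 5251, CA3 5475 and DG 5664 for Atp5b, and CA1 1736, CA3 1786 and DG 1855 for Cox4i1. For Ndufa4 they were CA1 766, CA3 811 and DG 819. For Uqcrh they were DG 486, CA1 510.1 and CA3 527, and for Sdha DG 2292, CA3 2373 and CA1 2392. In Cox4i1, Ndufa4, Uqcrh and Sdha the ranges of all 3 subregions overlapped. In Atp5b those of CA1 (5145 to 5330) and DG (5528 to 5826) did not.

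Other genes of the pathway are given from fixed lists for the combined comparison. Of 5 subunits and partners outside the symbol rule, Cyc1, the cytochrome c1 of complex III, rose from a mean of 432 to 542 (log2 difference 0.32, adjusted p = 0.000817), and the other 4 did not pass. This single gene is 20% of its list. Of 44 assembly factors, 3 rose and 0 fell, a share of 6.82% beside the 6.28% of all genes called higher: the copper chaperone Cox17, from 87.8 to 162 (0.95, adjusted p = 0.00489), Coa3, from 204 to 273 (0.40, adjusted p = 0.000347), and Pet100, from 82.1 to 99.5 (0.28, adjusted p = 0.0473). Of 13 enzymes of the tricarboxylic acid cycle, 0 passed the limma test (4 at an unadjusted p under 0.05), with differences from -0.06 to 0.14 and a median of 0.04.

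Of 8 carriers and pores, the ADP/ATP carrier Slc25a4 rose from 2516 to 2963 (0.23, adjusted p = 0.00549). This single gene is 12.5% of its list, beside the 6.28% of all genes called higher. Of 12 transcription regulators of the nuclear subunits and of mtDNA, Esrra, which encodes an estrogen-related receptor, rose from 152 to 191 (0.34, adjusted p = 0.00425), and 1 of 12 is 8.33%, near the same background. The lists' medians were 0.11, 0.09, 0.04, 0.08 and -0.06 in the order given, beside 0.13 for the members. Between CA1 and DG, 1 of 44 assembly factors (Cox18), 1 of 13 cycle enzymes (Mdh2) and 1 of 5 partners (Usmg5, a small ATP synthase subunit) were lower in CA1, with log2 differences of -0.76, -0.19 and -0.33. These are 2.27%, 7.69% and 20% of the lists, single genes beside the 0.832% of all genes called lower.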

How the data were processed

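RNA of microdissected CA1, CA3 and DG was extracted from each mouse and sequenced from rRNA-depleted libraries, with 16 libraries in 6 groups of subregion and training. Per the labels and methods, reads were demultiplexed with bcl2fastq 2.20, trimmed with Trim Galore, aligned with STAR and quantified, and DESeq2 was used by the authors; the labels name the build GRCm38. The deposited values are a signal per gene, estimated counts that the authors normalized between libraries by a method not given in the sources used here. They are not whole numbers, so the depth in reads is unknown and no count test was run.

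Of 24972 rows, 4 with a repeated symbol were left out. Values were tested as log2(value + 2) with limma 3.58.1 in R 4.3.3, with trend and robust estimation, after keeping genes with a value of at least 10 in at least 3 (CA1) or 2 libraries (other fits), so fold changes of low genes are understated. Replicates are animals, and the same animal gave up to 3 libraries. Titles number the mice within each training group, so libraries of the same number and training were taken as 1 mouse. Correlations of their deviations lay between -0.11 and 0.09 over all genes and between -0.31 and 0.54 over the members. Pairs of different mice were not compared over the members, so these values cannot show whether libraries of 1 mouse are independent. With the animal as a random effect, the correlation within animals was estimated at -0.04 over the genes tested. The combined fit pools 16 libraries of 6 mice as if they were independent. Scripts were tested on simulated data. Transcript lengths came from GENCODE M21, promoters from RefSeq. Members and lists were chosen with earlier results of these data known. Named were, by rule, up to 3 members each way with the smallest adjusted p per comparison, the complex I core, complex II, isoform sets, the highest member per kilobase of each complex, and members listed at 0 or under the filter. The result of 1 core member is not reported here. Alternatives changed the pseudocount, filter, scaling, model terms and animals.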

Additional observations from a re-analysis of the deposited data

Results flagged for a closer look

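The training difference of Atp5g3, a c subunit gene of ATP synthase, passed the test of a difference between CA1 and DG, but not without trained replicate 2 (adjusted p = 0.079) or without untrained replicate 1 (adjusted p = 0.085). It was smaller in CA1 than in DG by 0.69 on the log2 scale (-0.69, adjusted p = 0.0136 by limma over all genes), from an interaction term in the fit of the 6 groups. All 3 trained libraries were above all untrained ones in both subregions. All trained CA1 libraries and both untrained DG libraries had many genes at 0, and the part of this in the difference was not tested. Atp5g3 was 1 call among 80 members tested, beside 1.2% of all genes called higher and 1.55% called lower. The share of members called was thus not above that of all genes.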

How the results depend on the processing

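Counts below are members called at an adjusted p under 0.05, main value first. When a score of sex-linked transcripts entered the model, the counts were 0 for the combined, CA1, CA3 and DG training comparisons (25, 6, 3 and 7) and 4 for the training effect in CA1 against DG (1). With the length and GC trend removed they were 11 in CA1, 1 in CA3, 19 for CA1 against DG (4), 1 for CA1 against CA3 (0) and 3 for the training effect in CA1 against DG. The median difference of the members then turned to -0.00703 in CA1 and -0.000335 in DG. These 2 medians are not set beside those of all genes, so they do not show that members and all genes were alike. With the replicate block, CA3 gave 13 and DG 11, CA1 4 and the combined comparison 25. The numbers of trained and untrained mice share no animal, and 0 of 6 CA1 libraries correlated best with their own number. Between subregions the animal block gave 5 for CA1 against DG and, of the named members, lost Ndufv2. With all 16 libraries in 1 fit, DG gave 12. Without robust estimation, CA3 gave 1. Without the filter, CA1 against DG gave 1 and its training effect 4. Without CA3 untrained replicate 1, that effect gave 2. Without the CA3 libraries, chosen after seeing the data, the combined count was 9. The causes were not tested. Leaving out 1 animal gave 8 to 30 combined, 3 to 9 in CA1, 0 to 11 in CA3, 2 to 23 in DG, 0 to 3 for CA1 against DG, 0 to 5 for the training effect in CA1 against DG and 0 to 1 for that in CA3 against DG. Another pseudocount, median-of-ratios rescaling, a stricter filter and summed near-identical copies left every count within 1.5 times. Modelling which libraries had many genes at 0, the combined count was 27 and the CA3 count 2, where Uqcrq (adjusted p = 0.0724) and Ndufb11 (0.125) were lost. The 16 called differences recomputed singly kept their direction under every alternative run for them, but 58 of their 271 reruns no longer passed, and Ndufs5, outside these, turned from 0.70 to -0.08 in CA3 with copies summed. Depth in reads is unknown, so no floor can be given for Cox8c.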
